A study of Mus musculus with 12 samples.

Results

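A set of 330 regions, each 1000 bp long, carried far less DNA methylation in a single leukemic library than in any of the other 11 libraries of the study. They were taken from 81162 tested tiles, which are consecutive windows of the autosomes with at least 3 CpGs read 10 times or more in all 12 libraries. A tile was taken where exactly 1 of the 3 leukemic libraries stood at least 40 percentage points below the lowest of the other 11. Such a tile is called lost here, a word for the lower level only, since the level in the same cells before leukemia was not measured. The tiles were thus selected on the methylation levels of all 12 libraries, so their counts and levels are a description and carry no test.

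The libraries came from bone marrow of C57BL/6 mice aged 6 months, from cells sorted as LSK, the fraction without lineage markers that carries Sca1 and cKit and holds blood stem and early progenitor cells. There were 4 groups of 3 libraries. The leukemic group was Tet2(-/-) Nras(G12D), from animals with leukemia. The nonleukemic group had the same double genotype without leukemia, and the others were Tet2(-/-) alone (Tet2 KO) and Nras(G12D) alone. The mutations were conditional and specific to blood-forming tissue. Wild-type cells were not analysed here. The leukemic group was read from the prefix L of the titles and from the series design; the descriptions of its libraries also carry the letters BMT, which the labels do not spell out. The driver of the deletion and the number of animals behind a library are not given in the sources used here, so the spread between libraries may be technical in part. Surface markers are not read by this assay, so the identity of the sorted cells was not checked.

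Methylation of the cytosine in a CpG is kept through cell division by a maintenance enzyme that copies it to the new DNA strand. TET2 starts its removal by oxidising methylcytosine, and loss of TET2 is frequent in myeloid leukemia. NRAS is a signalling GTPase that the G12D change keeps active. Methylation was read by reduced representation bisulfite sequencing, in which DNA is cut at CCGG by MspI, short fragments are kept, and each kept fragment is read inward from its ends, on opposite strands. A value for a tile is thus the average over reads from a few fixed fragment ends, and all reads of an end begin at the same base. With no molecular tags, copies made by PCR cannot be told from separate DNA molecules, and intervals on reads cover counting error only.

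Depth was of the same order in all groups. The libraries held 96300485 to 199736369 reads over listed cytosines, and the median tested CpG had 147, 104 and 109 reads in leukemic replicates 1, 2 and 3, against 95 to 104 in nonleukemic, 70 to 100 in Tet2 KO and 84 to 102 in Nras G12D libraries. Tet2 KO replicate 2 was the shallowest at 70. Mitochondrial CpGs read as methylated at 0.222% to 1.0% of reads.

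The losses were unequally divided among the leukemic libraries. Leukemic replicate 3 held 235 of the 330 tiles, or 71.2%. Leukemic replicate 1 held 53 and leukemic replicate 2 held 42. By the rule itself this is 0.29%, 0.0653% and 0.0517% of the tested tiles in the same order, and 0.407% in all. The same rule applied to each of the other 9 libraries found 22 tiles in all. Of these, 1 was in nonleukemic replicate 3 (0.00123% of the tested tiles), 11 and 5 in Tet2 KO replicates 2 and 3 (0.0136% and 0.00616%), and 5 in Nras G12D replicate 3 (0.00616%). The remaining 5 libraries had 0.

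Only tiles that stand at 40% or more elsewhere can lose 40 points, and 50584 tiles met this in all but their lowest library. They are called open to loss below, and the lost tiles were 0.652% of them. Counted per library over the tiles at 40% or more in the other 11, leukemic replicate 3 lost 47.5 tiles in 10000, with an exact 95% interval of 41.6 to 53.9. Leukemic replicate 1 lost 10.8, with an interval of 8.06 to 14.1. Leukemic replicate 2 lost 8.54, with an interval of 6.16 to 11.5. Tet2 KO replicate 2 had the highest rate outside the leukemic group, at 2.25 with an interval of 1.12 to 4.02. A library with 0 lost tiles had an upper bound of 0.755 in 10000.

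**Figure D1:**
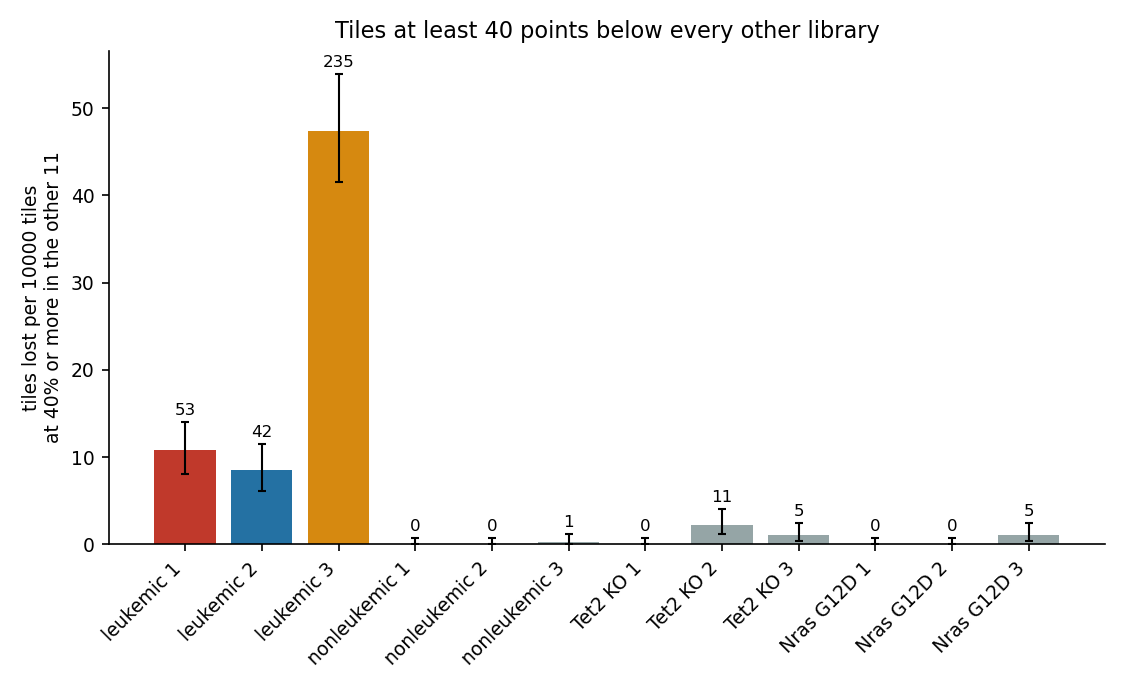
Lost tiles per 10000 tiles that stand at 40% or more in the other 11 libraries (y axis) for each of the 12 libraries (x axis). Bars give the rate, whiskers the exact 95% binomial interval for counting error, and numbers the tiles. Leukemic replicate 3 stands at 235 tiles, leukemic replicates 1 and 2 at 53 and 42, and the 9 libraries of the other groups at 0 to 11.

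Change in the opposite direction did not follow the same order. Tiles at least 40 points above every other library numbered 5, 1 and 6 in leukemic replicates 1, 2 and 3. In Tet2 KO replicate 2 there were 23 such tiles and in Nras G12D replicate 3 there were 2, with 0 in each of the 7 libraries left. Single-library loss thus stood highest in the leukemic libraries, and single-library gain in a Tet2 KO library.

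Most lost tiles were partly methylated rather than empty. In the low library the median level was 33.2% over the 53 tiles of leukemic replicate 1, 28.1% over the 42 of replicate 2 and 31.2% over the 235 of replicate 3, and levels ran between 0% and 52.2%. The lowest of the other libraries had a median of 81.2%, and the middle of the other 11 a median of 94.2%. Of the 330 tiles, 36 stood at 0 to 5% in the low library, 56 at 5 to 20%, 161 at 20 to 40% and 77 at 40% or more.

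**Figure D2:**
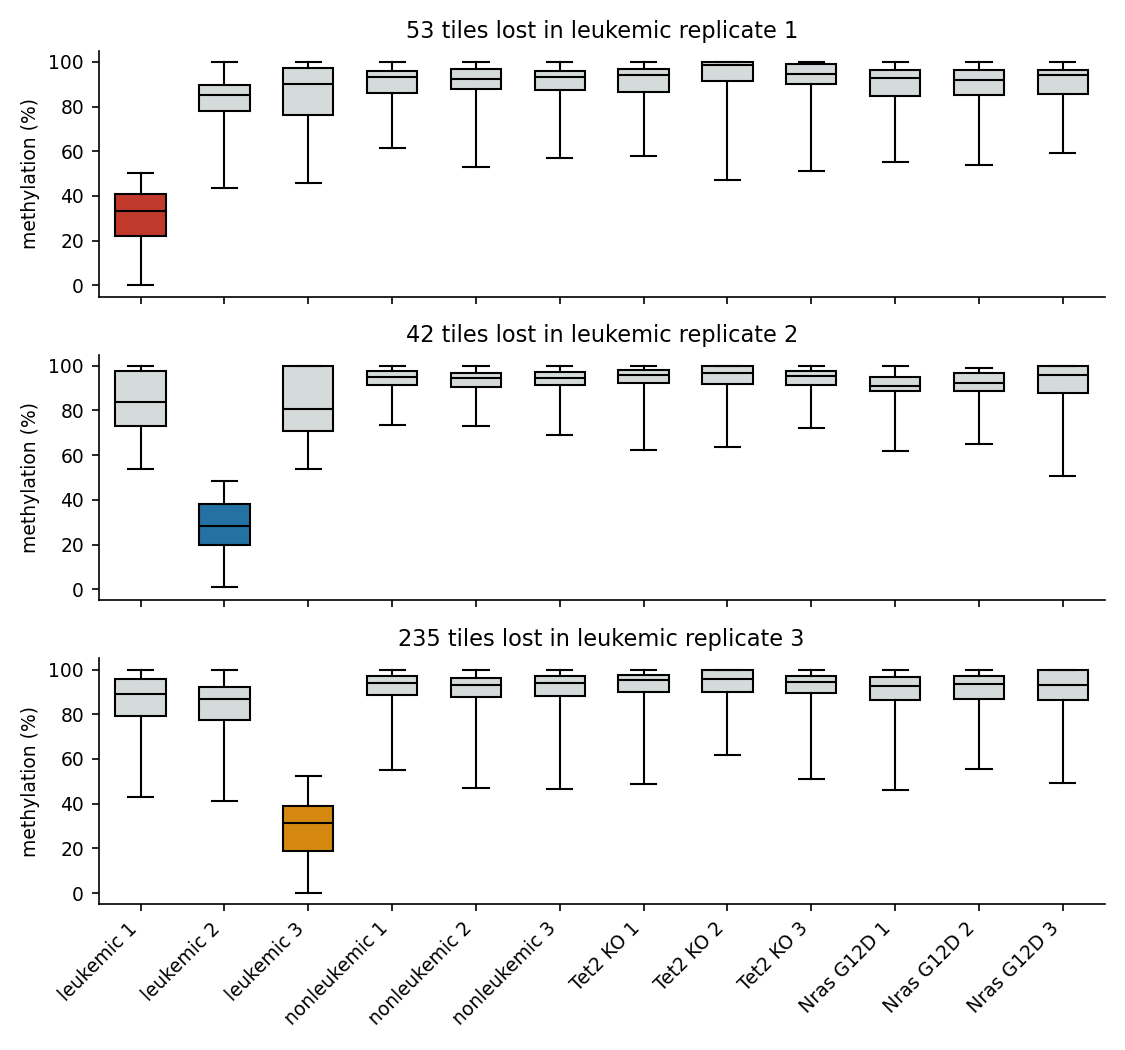
Methylation level (percent, y axis) of lost tiles in the 12 libraries (x axis), one panel per leukemic library that lost them. Boxes span the quartiles with the median as a line, and whiskers span the full range. The low library sits at a median of 33.2%, 28.1% or 31.2% by choice of the tiles, while the medians of the other libraries lie above 80%.

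The gap to the next library had a median of 47.2 points and ran between 40.1 and 89.9. It was under 50 points in 199 tiles and at least 70 in 15, of which 3 belonged to leukemic replicate 1 and 12 to leukemic replicate 3. Tiles gathered just above the threshold, and more lay just below it. Between 30 and 40 points there were 132 tiles in leukemic replicate 1, 88 in replicate 2 and 295 in replicate 3, against 0 to 27 in the 9 other libraries. The nearest tiles inside the threshold were chr8:97849000-97849999, chr8:123042000-123042999 and chr9:47736000-47736999, with gaps of 40.10, 40.11 and 40.11 points in leukemic replicates 1, 2 and 3. The nearest outside were chr13:9386000-9386999, chr6:86783000-86783999 and chr14:101983000-101983999, with gaps of 39.99, 39.98 and 39.97 points, all in leukemic replicate 3.

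The deepest losses reached 0. At chr16:81767000-81767999, named because it had the largest gap in leukemic replicate 1, none of 222 reads at 3 CpGs was methylated in that library, and the lowest other library stood at 86.9%. At chr5:102107000-102107999, the largest gap in leukemic replicate 3 and of all 330 tiles, that library had 0 methylated of 30 reads at 3 CpGs (exact 95% interval 0 to 11.6%), and the lowest other library stood at 89.9%. Both were named after their values were seen. Both tiles held a single read block, a run of CpG positions on a single strand with steps of at most 50 bp, the read length, which stands for about the reads of a single fragment end.

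Lost tiles were thinly sampled places. The median lost tile had 3 tested CpGs, the fewest the rule allows, against 4 in tiles open to loss and 5 in all tested tiles. Of the 330, 220 had exactly 3 CpGs (66.7%), against 38.6% of the tiles open to loss. The share lost was 1.13% of tiles with 3 CpGs, 0.541% with 4, 0.411% with 5 and 0.162% with 6 to 9. None of the 2503 open tiles with 10 CpGs or more was lost.

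The same held for the number of fragments and for depth. Tiles with 1 read block that had 10 reads in every library were lost at 1.28%, with 2 at 0.665%, with 3 at 0.337% and with more at 0.0483%. Sorted by coverage in the 9 libraries outside the leukemic group into 4 classes of equal size, open tiles were lost at 1.41% in the lowest class, then 0.743%, 0.372% and 0.0870% in the highest. The fewer the CpGs, blocks and reads that a tile averages, the larger the share lost, with no test, since the threshold itself is easier to pass for an average over fewer reads.

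Place in the genome gave smaller differences. By the number of tested CpGs in the surrounding megabase, in 4 classes of equal size, the share lost was 0.663% in the sparsest, then 0.791%, 0.586% and 0.570% in the densest. By chromosome it ran between 0.240% on chromosome 17, with 6 tiles, and 0.938% on chromosome 19, with 14 tiles. The level in the other groups made little difference too, with 0.503% lost among tiles at 40 to 60% there, on 4 tiles, and 0.653% among those at 90% or more.

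Within a lost tile the loss usually sat in a single read block. Of 215 lost tiles with at least 2 measured blocks, 162 (75.3%) had exactly 1 block at least 40 points below all 11 other libraries. All blocks were that low in 20 tiles (9.30%), none in 29, and some but not all in the other 4. By library, exactly 1 block was low in 29 of 38 tiles of leukemic replicate 1, in 17 of 30 of replicate 2 and in 116 of 147 of replicate 3.

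Where 1 block was low, it was close to empty in leukemic replicate 3, and its neighbours often kept their methylation in replicates 1 and 3. The low block had a median level of 22.8% in the tiles of leukemic replicate 1, 15.3% in those of replicate 2 and 3.75% in those of replicate 3. The remaining blocks of those tiles stood at a median of 90.8% in leukemic replicate 1 and 77.4% in replicate 3, but at 41.7% in replicate 2. Against the median of the other 11 libraries, these remaining blocks differed by -6.54, -53.4 and -15.0 points at the median in leukemic replicates 1, 2 and 3. They were within 10 points of it in 15 of 30 blocks, 0 of 17 and 60 of 134. Losses of leukemic replicate 2 thus reached past a single block more often, and the difference between libraries was not tested because the block levels enter the rule.

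**Figure D3:**
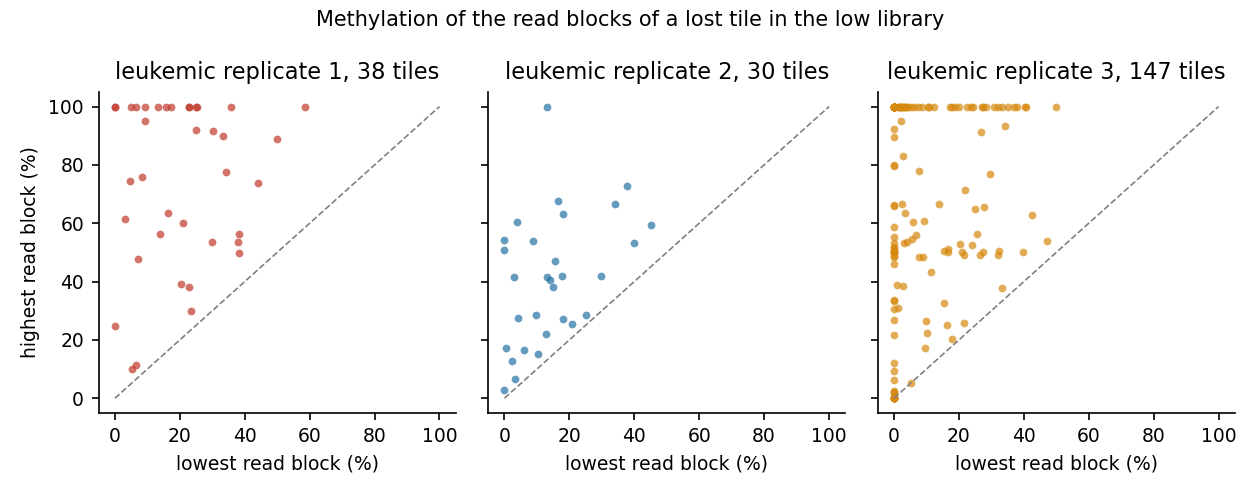
Highest read block (y axis, percent methylation) against the lowest read block (x axis, percent methylation) of each lost tile in the library that lost it, one panel per leukemic library, for the 38, 30 and 147 tiles with at least 2 blocks of 10 reads or more in every library. Points are tiles and the dashed line marks equal blocks. Many tiles of leukemic replicates 1 and 3 pair a low block with a block at 100%, while those of replicate 2 lie closer to the line, with median differences of 57.4, 59.2 and 23.4 points in leukemic replicates 1, 3 and 2.

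The spread between blocks of a tile shows the same split. In leukemic replicate 1, blocks of a lost tile differed by 57.4 points at the median of 38 tiles, in replicate 2 by 23.4 at 30 tiles, and in replicate 3 by 59.2 at 147 tiles. In the 9 libraries of the other groups, the same tiles had medians of 1.6 to 9.12 points. Over all tiles open to loss with 2 or more blocks, the medians were 12.5, 13 and 14 points in leukemic replicates 1, 2 and 3. For comparison, 34 tiles stood at least 40 points lower in every leukemic library than in the other groups. In the 29 of them with 2 or more blocks, blocks differed by 25.4, 11.6 and 28.5 points in leukemic replicates 1, 2 and 3, and all blocks were low in 8, 18 and 9 of them.

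CpGs on the same low block were close in level in leukemic replicates 1 and 3. Of 1171 tested CpGs in lost tiles, 638 (54.5%) were themselves 40 points below every other library. All CpGs were so low in 33 tiles, some in 278 and none in 19. Inside a low block with 2 or more CpGs, the CpGs differed by a median of 3.77 points in leukemic replicate 1, 11.6 in replicate 2 and 1.28 in replicate 3. In the remaining blocks the medians were 18.6, 10.3 and 22.2 points, so replicate 2 showed no such closeness. CpGs on a block share reads, so their values come from the same molecules and their copies. This holds for low and remaining blocks of every leukemic library. Where 1 block of a tile was low, its median level was 3.75% in replicate 3, which leaves CpGs little room to differ. It was 22.8% in replicate 1 and 15.3% in replicate 2. The part of shared reads and of the low level in the closeness was not tested.

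Where the same CpG was read on both strands, the strands often disagreed. Reads of opposite strands come from separate strands of DNA, which are converted and copied apart from each other. In leukemic replicate 3, 37 CpGs of lost tiles were read on both strands with a median difference of 70.8 points, and 22 differed by more than 40. In leukemic replicate 1, 23 such CpGs had a median difference of 40.8 points, and 12 differed by more than 40. In leukemic replicate 2, 9 such CpGs had a median difference of 8.16 points, and 0 differed by more than 40. Over tiles open to loss, the medians were 9.59, 5.83 and 10.1 points in leukemic replicates 3, 1 and 2. There 16.9%, 16.5% and 9.40% differed by more than 40, against 59.5%, 52.2% and 0% in lost tiles. A tile that is low on 1 strand only can pass the rule, and the part of this in the excess was not tested.

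Blocks at exactly 0% were frequent in the lost tiles of leukemic replicate 3. Of the 407 measured blocks in its lost tiles, 88 (21.6%) stood at exactly 0%, 68 (16.7%) at exactly 100% and 40 (9.83%) between 45 and 55%. In the other 11 libraries, 0 to 2 of the same blocks stood at exactly 0%, which the choice of tiles favours. The share at exactly 100% was 15.5% and 28.5% in leukemic replicates 2 and 1 and 16.2 to 45.2% in the 9 libraries of the other groups. That of leukemic replicate 3 lay within this range, though the choice of tiles lowers its share and favours those of the others. In leukemic replicate 1, 5 of 92 blocks stood at 0% and 14 at 100%, and in replicate 2, 3 of 73 stood at 0% and 1 at 100%.

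Outside the lost tiles, blocks at exactly 100% differed in number between libraries. Among 61436 blocks of the open tiles that were not lost, all with 50 reads or more in every library and a median of 80% or more in the 9 libraries of the other groups, 34.3% stood at exactly 100% in leukemic replicate 3, 24.2% in replicate 1 and 8.06% in replicate 2. The share was 9.07 to 11.3% in nonleukemic libraries. In Tet2 KO replicates 1, 2 and 3 it was 13.5%, 39.8% and 16.7%, and in Nras G12D replicates 1, 2 and 3 it was 11.2%, 9.54% and 37.9%. Blocks between 45 and 55% made up 1.38%, 1.26% and 2.14% in leukemic replicates 1, 2 and 3, and 0.0163 to 0.343% in the 9 others. The highest shares at exactly 100% were in Tet2 KO replicate 2 and Nras G12D replicate 3, with 11 and 5 lost tiles, ahead of leukemic replicate 3 with 235.

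Beyond the low block the median level was that of the other groups at most distances in leukemic replicates 1 and 3, while part of the CpGs stayed lower. Tested positions of the same strand and tile within 50 bp of a block belong to it, and every low block of a tile counts as inside. A tested CpG of the tile outside them lies in a block not counted as low. The change at the edge of a block is thus partly set by this definition. Only CpGs at 80% or more in the other groups were used for these distances. Those inside low blocks stood 75.1, 71.4 and 88.7 points below the median of the 9 libraries of the other groups in leukemic replicates 1, 2 and 3. At 1 to 50 bp from the block the median difference was 0 in leukemic replicate 3, over 29 CpGs, and 0 in replicate 1, over 14. At 51 to 100 bp the medians were again 0, but 32.1% of 56 CpGs in replicate 3 and 28.6% of 21 in replicate 1 were 20 points or more lower, against 16.7% and 14.9% of all CpGs of those libraries. At 201 to 500 bp replicate 3 had a median of 0 over 71 CpGs and replicate 1 of -35.9 over 5. In leukemic replicate 2 it was -80.8 points over 7 CpGs at 1 to 50 bp, -39.5 over 17 at 101 to 200 bp and -34.0 over 14 at 501 to 1000 bp. It was -7.10 over 28 CpGs at 1001 to 2000 bp, against -5.72 over all CpGs of this library. Distances under 1000 bp rest on fewer than 20 CpGs each in leukemic replicate 2, and many of these CpGs lie in the lost tiles themselves.

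**Figure D4:**
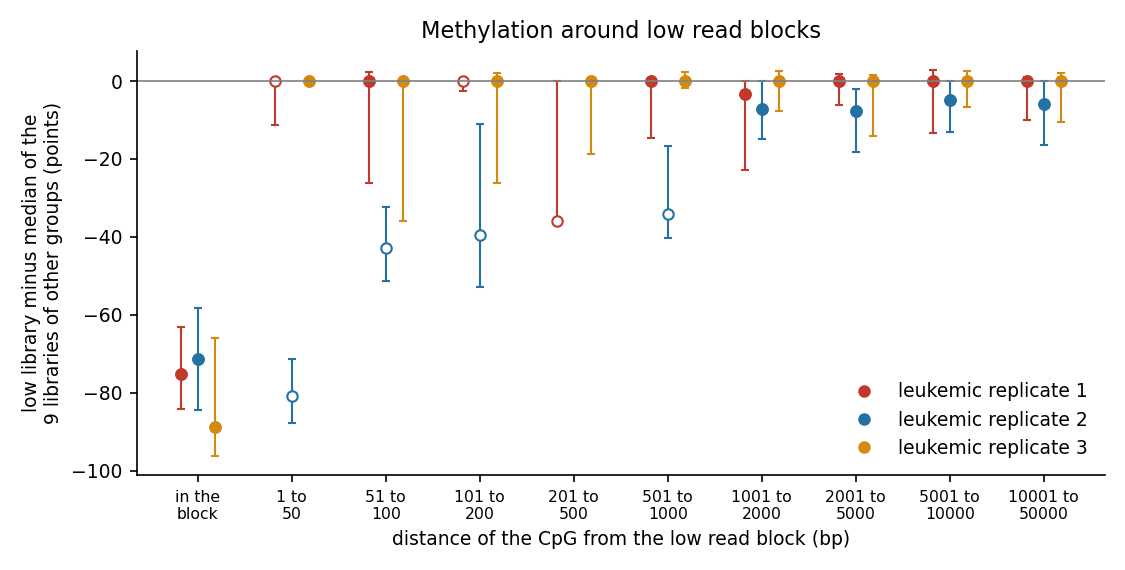
Difference of CpG methylation between the low library and the median of the 9 libraries of other groups (percentage points, y axis) by distance from the low read block (bp, x axis). Points are medians, whiskers the quartiles, and open points rest on 5 to 19 CpGs. All low blocks of a tile count as inside, so the change at the edge of a block is partly set by definition. Leukemic replicates 1 and 3 are at 0 within 50 bp of the block, replicate 1 is at -35.9 on 5 CpGs at 201 to 500 bp, and leukemic replicate 2 reaches -7.10 points at 1001 to 2000 bp.

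CpGs that took no part in the choice of tiles mostly stood at the level of the other groups in leukemic replicates 1 and 3. In lost tiles, 65 CpGs more than 50 bp from the low block had too few reads in some library to enter the rule, but could be compared in the low library. Their median difference from the other groups was 0, and 8 of them were 20 points or more lower. In leukemic replicate 2, 4 of 10 were, against 2 of 17 in replicate 1 and 2 of 38 in replicate 3. The median was -7.57 points in replicate 2 and 0 in replicates 1 and 3. Another 17 such CpGs lay at most 50 bp from the low block, with a median of 0, and 4 were 20 points or more lower. They included both of the 2 in replicate 2, with a median of -76.2 points.

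Lost tiles were scattered. No lost tile had another tile lost in the same library next to it or within 10 kb, 0 of 330, which allows a share of up to 1.11% (exact 95% bound). Of all tiles open to loss, 0.109%, 0.0909% and 0.565% lay within 10 kb of a different tile that was lost in leukemic replicates 1, 2 and 3. Within 100 kb there were 4 pairs, 1 in leukemic replicate 1 and 3 in replicate 3. That is 3.77% of the tiles of replicate 1, on 2 tiles, against 0.862% of tiles open to loss, and 2.55% of those of replicate 3 against 4.14%. The closest, named after its values were seen, was chr1:182224000-182224999 and chr1:182239000-182239999 in leukemic replicate 3, 15000 bp apart, with 51.8% and 28.3% in that library and at least 93.3% and 71.0% in the others. Within 1 Mb, 25.1% of the tiles of leukemic replicate 3 had another, against 29.0% of tiles open to loss. In leukemic replicate 1 it was 11.3% against 6.45%, on 6 tiles, and in replicate 2 it was 0% against 5.42%.

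Neighbouring tiles stood lower at the median than all high tiles of the library, by little in leukemic replicate 3. In replicates 1 and 2 this rests on 4 tiles each, and the differences were not tested. Where a tile next to a lost tile was tested and stood at 80% or more in the 9 libraries of the other groups, the library that lost the first tile differed from them by a median of -4.79 points over 47 such neighbours in leukemic replicate 3, -5.68 over 4 in replicate 1 and -10.3 over 4 in replicate 2. Over all high tiles the medians were -2.96, -2.60 and -6.72 points. Of the 47 neighbours in leukemic replicate 3, 6 were at least 20 points lower, against 10.3% of all high tiles. In replicate 2 it was 1 of 4, against 9.03%, and in replicate 1 it was 0 of 4, against 6.85%. Losses of different libraries rarely met, with 1 pair of tiles from different libraries within 1 kb.

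Among lost tiles with at least 5 CpGs and 2 blocks, the widest gap belonged to chr11:50436000-50436999 in leukemic replicate 3. Its 5 CpGs had 0% methylation over 90 reads there (exact 95% interval 0 to 4.02%), against 66.0% and 66.5% in leukemic replicates 1 and 2. Nonleukemic libraries stood at 89.2%, 87.2% and 66.2%, Tet2 KO libraries at 88.9%, 80.1% and 80.5%, and Nras G12D libraries at 63.6%, 93.7% and 62.1%. Both blocks were at 0%, and the coverage of the tile in leukemic replicate 3 was 0.335 of that in the other libraries, each scaled to its own depth.

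At chr8:113313000-113313999 leukemic replicate 3 had 0.366% over 273 reads (interval 0.00927 to 2.02%), against 71.9% and 59.7% in leukemic replicates 1 and 2. Nonleukemic libraries stood at 72.3%, 64.4% and 70.4%, Tet2 KO at 77.2%, 78.2% and 65.6%, and Nras G12D at 60.1%, 63.4% and 72.9%. All 3 of its blocks were at 0 to 2.04% in leukemic replicate 3. This is a tile of middle methylation elsewhere that was nearly empty over its whole measured length in that library.

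The other named tiles of leukemic replicate 3 were chr4:140915000-140915999 at 30.6%, chr3:41574000-41574999 at 30.7% over 8 CpGs and chr17:27178000-27178999 at 9.44%. The last shows how blocks differ, with 0% at the first forward block, 50.0% at the second and 5.26% at the reverse block, where the other libraries had medians of 41.2%, 94.5% and 97.4%.

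In leukemic replicate 1 the tile chr10:69076000-69076999 split by strand. Over 5 CpGs it stood at 40.8% in leukemic replicate 1 (interval 36.3 to 45.3%), against 84.6% and 94.2% in leukemic replicates 2 and 3. Nonleukemic libraries had 91.0%, 89.6% and 88.1%, Tet2 KO 91.9%, 96.7% and 90.2%, and Nras G12D 94.0%, 84.5% and 97.2%. The forward block, 2 CpGs, stood at 92.0% over 112 reads, and the reverse block, 3 CpGs, at 25% over 364 reads. Another tile, chr19:45124000-45124999, had 100% at a forward block of 20 reads and 5.07% at a reverse block of 473 reads.

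The best covered of them, chr4:20332000-20332999, was low on both strands. Leukemic replicate 1 had 28.2% over 1395 reads (interval 25.9 to 30.7%), against 79.1% and 89.6% in leukemic replicates 2 and 3. Nonleukemic libraries stood at 98.0%, 92.4% and 95%, Tet2 KO at 93.8%, 100% and 97.6%, and Nras G12D at 94.9%, 87.1% and 90.9%. The forward block stood at 29.9% and the reverse block at 23.4%. The 2 remaining named tiles of leukemic replicate 1, chr3:97723000-97723999 and chr1:99409000-99409999, stood at 29.1% and 47.9%.

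In leukemic replicate 2 the widest gap among lost tiles with at least 5 CpGs and 2 blocks was at chr16:35857000-35857999, which had 9 CpGs. Leukemic replicate 2 stood at 20.6% over 618 reads (interval 17.4 to 24.0%), against 80.4% and 80.1% in leukemic replicates 1 and 3. Nonleukemic libraries had 96.0%, 91.8% and 95.5%, Tet2 KO 100%, 96.2% and 97.1%, and Nras G12D 78.5%, 94.6% and 96.4%. Forward and reverse blocks stood at 27.3% and 18.2%, so this loss was carried by 2 separate fragment ends.

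At chr10:80825000-80825999 leukemic replicate 2 had 11%, against 56.0% and 70.1% in leukemic replicates 1 and 3. Nonleukemic libraries had 95.2%, 93.7% and 93.2%, Tet2 KO 87.7%, 97.5% and 95.2%, and Nras G12D 90.3%, 95.2% and 84.8%. All 3 leukemic libraries lie below all 9 others here, with replicate 2 far below. The same order held at chr10:59063000-59063999, with 25.2% in leukemic replicate 2 against 73.1% and 67.9% in leukemic replicates 1 and 3 and a lowest value of 90.1% in the other groups. The fourth named tile, chr19:17089000-17089999, stood at 26.6% in leukemic replicate 2.

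Such tiles raise the question of whether the leukemic libraries that did not lose a tile were lower there as well. For each set, the low library was left out and the 2 remaining leukemic libraries were compared with the 3 nonleukemic libraries. Read counts were tested by quasi-binomial regression over all 81162 tiles, with all 11 libraries of a fit sharing the dispersion and Benjamini-Hochberg adjustment. Calls needed an adjusted p below 0.05 with group means 10 points or more apart. The rule kept both remaining libraries 40 points above the low one, and all compared libraries entered it, so the calls below describe the tiles and support nothing.

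The remaining leukemic libraries were called lower at 12 of the 42 tiles lost in leukemic replicate 2 (28.6%), where percent called over all tested tiles was 3.8 and over tiles open to loss 4.7. At the tiles lost in leukemic replicate 1 they were called lower at 3 of 53 (5.66%, against 6.51 and 8.8), and at those lost in leukemic replicate 3 at 14 of 235 (5.96%, against 5.64 and 7.51). None was called higher, where percent called over all tested tiles was 0.175, 0.16 and 0.159, and over tiles open to loss 0.0672, 0.109 and 0.0672, in the fits without leukemic replicates 1, 2 and 3. The median difference was -6.19 points at the tiles of leukemic replicate 2, against -3.24 over tiles open to loss in that fit. It was -5.48 against -5.07 for replicate 1, and -4.77 against -4.80 for replicate 3. The shares for replicates 1 and 3 are near the background.

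By level, the tiles of leukemic replicate 2 had medians of 83.9% and 80.7% in leukemic replicates 1 and 3, where tiles open to loss had 90.8% and 90.1%. The tiles of leukemic replicate 1 had 85.2% and 90.2% in leukemic replicates 2 and 3, and those of replicate 3 had 89.2% and 86.7% in leukemic replicates 1 and 2, where tiles open to loss had 86.6% in replicate 2. In the other groups, medians over all 330 tiles averaged 93.7% ± 0.513 in nonleukemic, 95.3% ± 1.03 in Tet2 KO and 93.2% ± 0.439 in Nras G12D libraries (SD, n = 3 each).

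The 5 called tiles with the smallest p in the set of leukemic replicate 2 included both chromosome 10 tiles named above. The smallest was at chr17:49574000-49574999, with 72.5% and 66.0% in leukemic replicates 1 and 3, against 97.8%, 94.0% and 95.4% in nonleukemic libraries (difference -26.5 points). The largest difference of the 5 was at chr13:107703000-107703999, with 57.6% and 56.3% in leukemic replicates 1 and 3, against 97.5%, 96.7% and 97.1% in nonleukemic libraries (-40.2 points). Leukemic replicate 2 stood at 5.81% there. The fifth was chr3:94490000-94490999, at -30.6 points.

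In the set of leukemic replicate 3 the smallest p was at chr10:66541000-66541999, where leukemic replicate 3 had 0.498%. Leukemic replicates 1 and 2 stood at 43.1% and 41.1%, against 88.6%, 77.2% and 87.6% in nonleukemic libraries (-42.4 points). The 3 called tiles of leukemic replicate 1 were chr3:97723000-97723999, chr4:46626000-46626999 and chr10:6069000-6069999, with differences of -17.6, -29.2 and -21.4 points.

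These calls depend on the test. With limma on the log ratio of methylated to unmethylated reads, 0 of the 330 tiles were called, where percent called was 0.0678, 0.0382 and 0.00246 in the fits without leukemic replicates 1, 2 and 3. Before adjustment, 13 of 53, 17 of 42 and 57 of 235 were lower at p below 0.05 by the quasi-binomial test. That is 24.5%, 40.5% and 24.3%, against 30.4%, 22.3% and 28.3% of tiles open to loss. In a fit on the leukemic and nonleukemic libraries alone, 0 were called as well, where percent called was 1.43, 0.0579 and 0.306. With nonleukemic replicate 1, 2 or 3 left out of the quasi-binomial fit, the tiles of leukemic replicate 2 called lower were 6, 6 and 5, against percent called of 0.893, 0.828 and 0.89.

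The 3 groups without leukemia, whose libraries the rule used only as a floor, gave no called difference at lost tiles. In a fit of the 9 libraries, 0 of the 330 tiles and 0 of all 81162 were called in any of the 3 contrasts, by the quasi-binomial test or by limma. At an unadjusted p under 0.05, 2 were lower and 29 higher in Tet2 KO than in Nras G12D (0.606% and 8.79%, against 1.51% and 8.84% of tiles open to loss). In nonleukemic over Nras G12D, 3 were lower and 10 higher (0.909% and 3.03%, against 1.55% and 3.46%). In nonleukemic over Tet2 KO, 13 were lower and 1 higher (3.94% and 0.303%, against 4.75% and 1.45%). The shares of lost tiles were below those of tiles open to loss in each case.

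Coverage was lower at lost tiles than at tiles open to loss, by the median mostly in leukemic replicates 1 and 3. Relative coverage is the number of reads of a tile in the low library over that in the other libraries, each scaled to its own median. At lost tiles its median was 0.671 in leukemic replicate 1, 0.923 in replicate 2 and 0.579 in replicate 3, against 0.968, 0.988 and 0.955 over tiles open to loss in those libraries. It was under 0.5 at 16 of 53, 6 of 42 and 88 of 235 lost tiles (30.2%, 14.3% and 37.4%), against 7.12%, 2.79% and 10.4% of tiles open to loss. In leukemic replicate 3 it fell with the size of the gap, with medians of 0.972 where the gap was under 10 points, 0.859 at 10 to 20, 0.774 at 20 to 30, 0.681 at 30 to 40 and 0.579 at 40 or more.

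**Figure D5:**
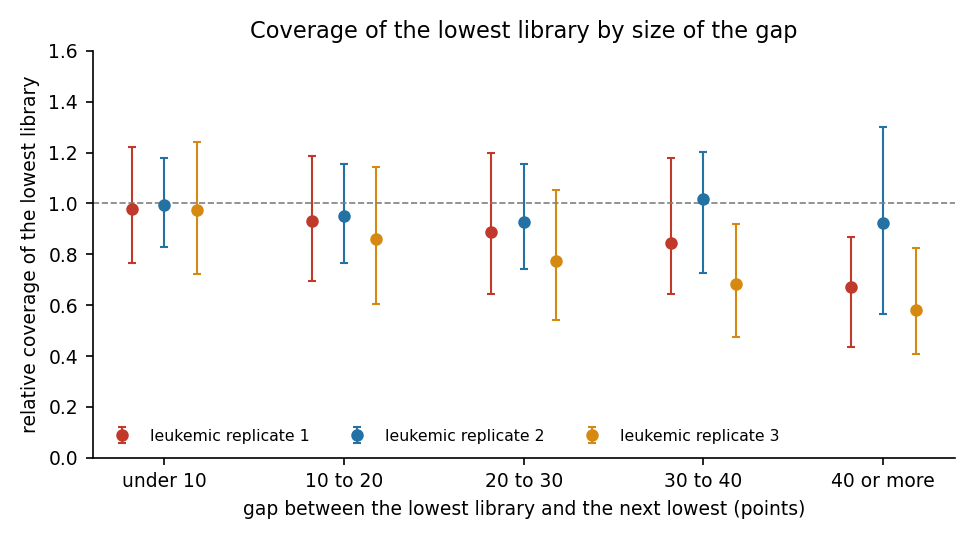
Relative coverage of the lowest library (y axis, reads of the tile scaled to each library's depth and divided by the other libraries) by the gap to the next lowest library (x axis, percentage points), for tiles open to loss whose lowest library is leukemic. Points are medians and whiskers the quartiles. At gaps of 40 points or more leukemic replicate 3 stands at 0.579 and leukemic replicate 1 at 0.671, while leukemic replicate 2 stays at 0.923.

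The number of missing CpGs differed between libraries as well. Of CpGs with 20 reads or more in all 11 other libraries, 1.21%, 0.0983% and 4.08% were not listed in leukemic replicates 1, 2 and 3. The share was 0.0246 to 0.133% in nonleukemic libraries, 0.0290%, 5.18% and 0.312% in Tet2 KO replicates 1, 2 and 3, and 0.0308%, 0.0188% and 0.567% in Nras G12D replicates 1, 2 and 3. The libraries with the most missing CpGs, Tet2 KO replicate 2 and leukemic replicate 3, had the most lost tiles of their groups. Leukemic replicate 2 had few missing CpGs and 42 lost tiles. Tet2 KO replicate 2, with the most missing CpGs of all, had 11 lost tiles. Within the leukemic group replicate 3 had the lowest relative coverage at its lost tiles, the most missing CpGs and the most blocks at 100%. The libraries with 0 lost tiles had the fewest missing CpGs, 0.0188 to 0.0520%, against 0.0983 to 5.18% in those with lost tiles. Among libraries with lost tiles, the order by missing CpGs was not that by lost tiles. Blocks at 100% outside the lost tiles did not divide the libraries in this way, with the lowest share in leukemic replicate 2. The part of missing CpGs and of blocks at 100% in the losses was not tested. With relative coverage of at least 0.5 required, 220 lost tiles were left, 147 of them in leukemic replicate 3.

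Counted on read blocks in place of tiles, the same order of leukemic libraries held at larger numbers. Of 231606 blocks, 728, 368 and 2201 were lost alone in leukemic replicates 1, 2 and 3. The other libraries with more than 2 were Tet2 KO replicate 2 with 224, Nras G12D replicate 3 with 159 and Tet2 KO replicate 3 with 57. The remaining 6 libraries had 0 to 2. A loss in few DNA molecules, in some of the cells or in a single clone cannot be told apart from read fractions without molecular tags, so the 330 tiles are described by the library that was low and not by a cell or clone of origin.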

How the data were processed

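Reduced representation bisulfite sequencing of 12 mouse libraries was used as deposited. Per the labels' protocols, MspI fragments of 150 to 400 bp were read for 50 bp from a single end. Per the submitters' processing notes, Bismark and mm9 (NCBIM37) were used; a Bismark version is not given in the sources used here. The deposited tables give coverage as a count of reads per strand position, at least 10, and the percent of reads with C and with T, per the file headers. Methylated and unmethylated read counts were rounded from these, and the strands of a CpG were added, giving 921697 autosomal CpGs with 10 reads or more in every library. Tile levels pool reads. Intervals are exact (Clopper-Pearson, 95%). The quasi-binomial model used dispersions moderated as in limma's squeezeVar and floored at 1, with 3 libraries per group; it was tested on simulated data. Tools were limma 3.58.1 in R 4.3.3, and matplotlib 3.10.9, pandas 2.3.3, SciPy 1.17.1 and NumPy 2.4.6 in Python 3.11.15.

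The lost tiles, the lists and the tests were chosen with earlier results of these data known. Tiles named in full were, per leukemic library, the 5 (or all, if fewer) with the widest gap among lost tiles with at least 5 CpGs and 2 read blocks, the 3 nearest to each side of the threshold, and up to 5 called tiles per fit with the smallest p. No group of lost tiles within 10 kb of each other existed to be named. No genome or annotation of mm9 was used here, so no gene, gene list or sequence is given. Same-numbered libraries did not deviate together (correlations -0.0123 to 0.0231 over 18 pairs), so replicate numbers were not taken as pairs. Alternatives were another coverage minimum, gap, tile length, tile offset and CpG minimum, means of CpGs, thinned reads, the X chromosome, limma, a fit on 2 groups, a replicate block and each library left out. Added after seeing the data were read blocks for tiles, 9 libraries, a relative coverage minimum, and remaining leukemic libraries left out in turn.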

Additional observations from a re-analysis of the deposited data

Results flagged for a closer look

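On the X chromosome, which the rule leaves out, 16 of 1044 tiles at 40% or more in all but their lowest library were lost in leukemic replicate 3 alone. Leukemic replicates 1 and 2 lost 1 each, Tet2 KO replicate 2 lost 1, Nras G12D replicate 1 lost 1, and the nonleukemic libraries lost 0. The value stands out because these data enter no comparison above and the count is higher than in the libraries of the other groups. The sexes of the animals are not labelled. Listed Y chromosome positions numbered 2 to 18 in the leukemic libraries, against 349, 2 and 5 in nonleukemic replicates 1, 2 and 3, 360, 251 and 6 in Tet2 KO replicates 1, 2 and 3, and 6 to 13 in Nras G12D libraries, so X levels are compared here between libraries that differ in Y reads, and the part of this in the count was not tested.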

How the results depend on the processing

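Of the settings tried, these moved a count of lost tiles beyond 1.5 times. A coverage minimum of 20 reads gave 168 tiles (31, 20 and 117 in leukemic replicates 1, 2 and 3), and at least 5 CpGs per tile gave 44 (8, 6 and 30). A gap of 30 points gave 870 (189, 132 and 549) with a median level of 37.8% in the low library, and a gap of 50 points gave 131 (16, 12 and 103) with 24.7%. Read blocks in place of tiles gave 3297 (728, 368 and 2201). With 9 libraries, leaving out the 3 outside the leukemic group that lost more than 1 tile, leukemic replicate 1 had 101. With relative coverage of at least 0.5, leukemic replicate 3 had 147. Within 100 kb, 2.42% of lost tiles had another of the same library. Leaving out each library in turn gave 185 to 442 tiles in all, 53 to 94 in leukemic replicate 1, 42 to 112 in replicate 2 and 236 to 348 in replicate 3, with a median level of 29.8 to 32.6% and a share within 10 kb of 0 to 1.08%. Leukemic replicate 2 had 112 without leukemic replicate 3 and 81 without leukemic replicate 1, and leukemic replicate 1 had 94 without leukemic replicate 2, as the rule then compares with fewer libraries. Means of CpGs, thinned reads, tiles shifted or of 500 bp or 2 kb, the X chromosome and an upper coverage limit kept the count at 288 to 348. Of the lost tiles called lower in the remaining leukemic libraries, 29 in all, 13 were called with a replicate block (2, 5 and 6, against percent called of 3.91, 1.67 and 3.24), 12 with 20 reads, 0 on the 2 groups alone and 0 by limma. Leaving out nonleukemic replicate 1, 2 or 3 gave 7, 7 and 8. Over the 6 leukemic and nonleukemic libraries left out in turn the range was 7 to 18. Without a further leukemic library, the fit holds 1 leukemic library and the count covers only 2 of the 3 sets. Those counts cannot be set against 29, and nothing is drawn from them. The 12 with 20 reads came from the 168 tiles lost at that setting. They were 1 of 31, 8 of 20 and 3 of 117 in the sets of leukemic replicates 1, 2 and 3 (3.23%, 40% and 2.56%). Percent called over all tiles in the same fits was 6.18, 3.53 and 5.22. All compared libraries entered the rule, so these shares describe the tiles and support nothing. In the 9 libraries of the other groups, leaving out each library gave 0. The cause was not tested where none is named. Depth limits what a tile of 30 reads can show, and PCR copies make it less than its reads.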
